A study of Mus musculus and Homo sapiens with 18 samples.

Results

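Lens progenitor-like cells derived from neural stem cells (NLPCs) were compared with and without deletion of Qk, over every gene counted. The comparison used 6 of the 18 libraries of the series, 3 labelled wild type (WT) and 3 labelled Qk-/-, each taken by its label in the gene count table of these cells. The starting neural stem cells came from whole brains of newborn Nestin-CreERT2;QkL/L mice, in which a Cre recombinase driven by the Nestin promoter is switched on by 4-hydroxytamoxifen and removes exon 2 of Qk. Both groups were then taken through the same differentiation, first with Noggin at 100 ng/ml and then with bFGF at 100 ng/ml, BMP4 at 20 ng/ml and BMP7 at 20 ng/ml. The labels call both groups a primary cell line, do not say whether the WT cells had been exposed to a vehicle, and do not say whether the 3 libraries of a group came from separate cultures, so the p-values measure the spread between these libraries, which may be technical.

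Qk encodes Quaking (QKI), an RNA-binding protein of the STAR family that controls splicing, export, stability and translation of its target RNAs and is best known for its part in glial differentiation and myelination. Notch signalling keeps neural stem cells from differentiating early, while FGF and BMP ligands, which were supplied in the medium here, are the classical inducers of the lens lineage. Neurons are recognised by genes of the synaptic vesicle and the dense-core secretory granule, astrocytes by glutamate uptake and intermediate filament genes, and lens fibres by crystallins.

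The Qk gene itself was measured first, as normalised counts (CPM after scaling by the trimmed mean of M-values, TMM). They were 2674, 2444 and 2541 in WT and 3599, 3088 and 3510.3 in the libraries labelled Qk-/- (log2 fold change 0.41, SE 0.09, edgeR adjusted p = 0.027; exact two-sided permutation test, p = 0.1, the smallest that 3 libraries against 3 allow). The groups did not overlap, and the libraries labelled Qk-/- were the higher ones. The counts are summed over the whole gene, so reads of the deleted exon could not be separated from the rest. The call was lost without any 1 library other than the labelled Qk-/- replicate 2, with log2 fold changes of 0.37 to 0.48 over the libraries left out. A total over the gene checks the labels in neither direction, the study's protein measurements not being part of these counts, and the groups are named here by their deposited labels.

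Of 20371 genes tested, 2179 (10.7%) passed an adjusted p of 0.05, of which 965 (4.74%) were higher and 1214 (5.96%) lower in those labelled Qk-/-. Each group of genes was read against these shares, which cover genes of all types. Of the 14610 protein-coding genes tested, 2036 (13.9%) passed, 864 higher and 1172 lower. For lists of protein-coding genes these are the closer yardstick, and several lists lie near it. A gene that passed is called higher or lower. A signed value after a gene name, and the median of a gene list, is a log2 fold change of the labelled Qk-/- over WT. Values written as a change from 3 numbers to 3 others are normalised counts of replicates 1, 2 and 3 in WT and then in those labelled Qk-/-. All 2179 had groups that did not overlap, as had 35.2% of all genes tested. Large increases outnumbered large decreases: 133 called genes rose and 42 fell by 4-fold or more, and 41 rose and 5 fell by 16-fold or more. No minimum level was set for these numbers, so they include rare transcripts, such as Gm37039 (7.78), which had 0 counts in every WT library. They were not repeated without the labelled Qk-/- replicate 2, in which some of the largest increases were highest. The median log2 fold change was 0.04 over all genes tested. It was 0.06 with the size factors of DESeq2 and 0.09 with total counts alone, so no scaling moved the bulk of the genes by more than 0.1.

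Replicate 2 of the libraries labelled Qk-/- stood apart. It held 28154202 counts, the other 5 between 45350794 and 68243360, and its correlations with the others on the log2 scale were 0.872 to 0.914. The first principal component, with 57.6% of the variance, set it at 170 and the other libraries between −75.4 and 5.5. Without it 3797 genes passed (18.0% of those tested), 1728 higher (8.18%) and 2069 lower (9.79%). The number was 793 without WT replicate 1, 873 without WT replicate 2, 681 without WT replicate 3, 896 without the labelled Qk-/- replicate 1 and 1422 without the labelled Qk-/- replicate 3. Counts of group members are given with all 6 libraries and, where they moved, with each library left out.

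**Figure D1:**
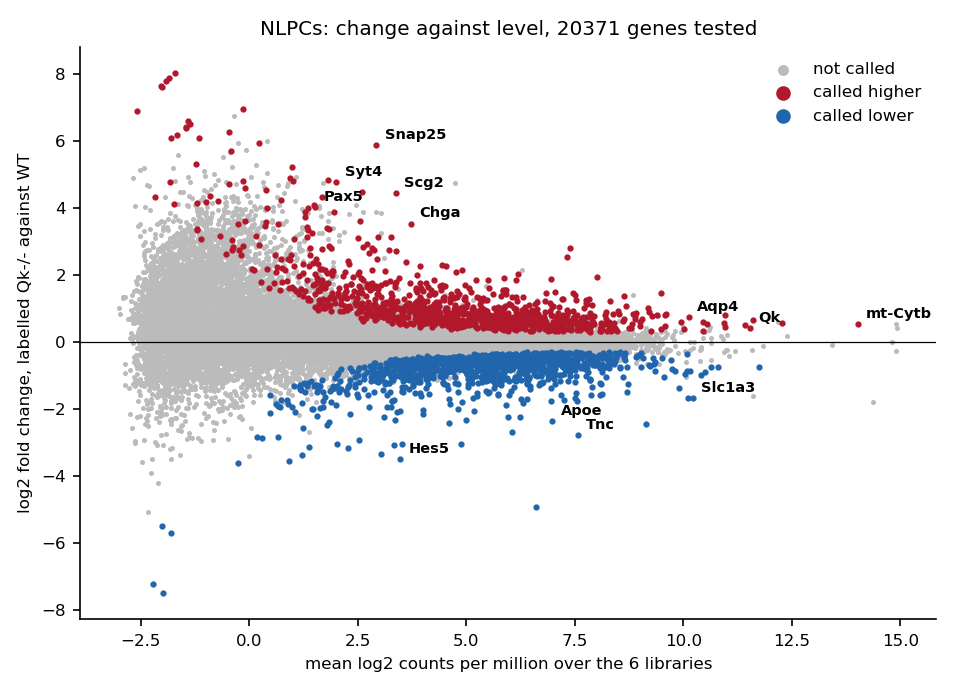
Log2 fold change (y axis) of each of the 20371 genes tested against its mean log2 CPM over the 6 libraries (x axis), with the 965 genes called higher in red, the 1214 called lower in blue and the others in grey. Snap25, Scg2 and Chga lie among the largest increases and Tnc and Hes5 among the largest decreases of genes that were not rare.

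The lens identity of the cells was checked against the defining markers. The 19 listed crystallin genes together took 0.0072 to 0.0104% of the counts in the 6 NLPC libraries, against 64.7 to 65.3% in the 3 control lenses (Nestin-CreERT2; QkL/+) of the same series. Those were whole lenses, fibre cells included, while NLPCs are named progenitor-like. The starting neural stem cells are not among the libraries, so a change of these genes during differentiation could not be measured. Of these genes, 6 did not reach 10 counts in any NLPC library and Crygf was at 0 in every one. Cryaa, an alpha-crystallin gene, had at most 18 counts, Mip, the water channel of fibre cells, at most 12, and Foxe3, a transcription factor of the lens epithelium, at most 1. Pax6, needed for both eye and forebrain development, was present at 80.2, 83.2 and 85.7 in WT and 84.9, 80.9 and 88.04 in the libraries labelled Qk-/-, and Prox1, which drives fibre elongation and is also a neural gene, at 50.6, 39.2 and 45.3 in WT and 47.1, 46.98 and 38.5 in the libraries labelled Qk-/-. Neither passed the test (log2 fold changes 0.03 and −0.03).

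By contrast, neural markers were abundant. The intermediate filament gene Nes stood at 942, 979 and 881 in WT and 867, 802 and 891 in the libraries labelled Qk-/-, and the glial fate gene Olig2 at 421, 407 and 447 in WT and 446, 307 and 392 in the libraries labelled Qk-/-. The 25 astrocyte genes took 1.10 to 1.56% of the counts and the 25 neural stem genes 0.689 to 1.04%, while 22 microglial genes took 0.00387 to 0.00558% and 18 endothelial genes 0.00477 to 0.00622%. Of the listed crystallins, 4 were abundant enough to be tested. The small heat shock protein gene Cryab, which glia also express, fell from 61.3, 70.1 and 62.9 to 29.6, 11.7 and 29.3 (−1.45, adjusted p = 0.0232 from edgeR), and Crybg3 rose (0.73, adjusted p = 0.00641). Cryab did not pass without WT replicate 1, 2 or 3 or the labelled Qk-/- replicate 1, nor Crybg3 without WT replicate 1. Maf, a transcription factor of lens fibres, rose from 38.1, 27.2 and 33.6 to 77.3, 128 and 60.3 (log2 fold change 1.42, SE 0.27, edgeR adjusted p = 0.0142).

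Among protein-coding genes that were not rare (mean log2 CPM of at least 1), the largest increase was that of a gene of neuronal exocytosis. Snap25, a core subunit of the SNARE complex that fuses synaptic vesicles with the membrane, had normalised counts of 0.161, 0.496 and 0.160 in WT and 18.4, 11.8 and 14.6 in the libraries labelled Qk-/- (log2 fold change 5.87, SE 0.44, edgeR adjusted p = 0.000331). Syt4, a synaptotagmin of secretory vesicles, stood at 0.278, 0.496 and 0.102 in WT and 7.55, 8.47 and 7.12 in the libraries labelled Qk-/- (log2 fold change 4.77, SE 0.50, edgeR adjusted p = 0.00111). In both genes every library labelled Qk-/- lay far above every WT library, and no WT library exceeded 0.496.

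Among the genes that rose were 3 granin genes, which encode cargo proteins of dense-core secretory granules. Scg2, the gene of secretogranin II, had normalised counts of 0.877, 1.06 and 0.786 in WT and 18.7, 22.2 and 18.6 in the libraries labelled Qk-/- (log2 fold change 4.46, SE 0.18, edgeR adjusted p = 8.64e-05). Chga, the gene of chromogranin A, had 2.97, 1.58 and 1.72 in WT and 24.6, 21.8 and 26.9 in the libraries labelled Qk-/- (log2 fold change 3.53, SE 0.25, edgeR adjusted p = 0.000331). Chgb, the gene of chromogranin B, which was named after its values were seen because it had the smallest adjusted p of all genes, had 42.02, 41.9 and 42.9 in WT and 306, 287 and 287 in the libraries labelled Qk-/- (log2 fold change 2.79, SE 0.08, edgeR adjusted p = 9.43e-06). In all 3 genes the lowest library labelled Qk-/- lay several-fold above the highest WT library.

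The promoters of Scg2, Chgb and Celf6 are shown because these 3 genes rose and each holds the full palindrome of the cAMP response element, TGACGTCA, a well-known element of granin promoters. Sequences are those of RefSeq (GRCm38.p6), 250 bases before to 50 after the annotated start, 5′ to 3′ on the strand of the gene, with the palindrome in capitals. It was found in 588 of 32851 such promoters (1.79%), both strands being identical. The motif and the genes were picked after the values were seen, and a match describes the letters only.
Scg2 (chr1:79439977-79440276, minus strand): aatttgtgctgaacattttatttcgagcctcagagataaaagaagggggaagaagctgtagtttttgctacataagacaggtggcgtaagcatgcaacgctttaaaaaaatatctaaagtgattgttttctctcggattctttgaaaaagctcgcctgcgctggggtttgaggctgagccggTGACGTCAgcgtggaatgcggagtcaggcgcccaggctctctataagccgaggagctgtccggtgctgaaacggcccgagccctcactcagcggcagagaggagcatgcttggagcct
Chgb (chr2:132781392-132781691, plus strand): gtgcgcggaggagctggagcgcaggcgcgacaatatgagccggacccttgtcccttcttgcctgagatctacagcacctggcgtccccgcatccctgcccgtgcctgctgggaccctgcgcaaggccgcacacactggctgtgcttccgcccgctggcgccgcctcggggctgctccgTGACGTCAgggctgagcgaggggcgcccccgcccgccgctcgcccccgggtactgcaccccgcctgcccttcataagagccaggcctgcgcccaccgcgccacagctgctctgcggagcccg
Celf6 (chr9:59578087-59578386, plus strand): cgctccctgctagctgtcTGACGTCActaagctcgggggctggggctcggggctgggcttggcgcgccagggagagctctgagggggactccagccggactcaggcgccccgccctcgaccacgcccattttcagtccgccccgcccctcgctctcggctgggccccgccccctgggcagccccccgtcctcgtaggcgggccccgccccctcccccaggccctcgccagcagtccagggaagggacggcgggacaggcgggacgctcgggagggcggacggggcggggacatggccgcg
Counted from the start site as 0, the element began at −68 in Scg2, at −72 in Chgb and at −232 in Celf6.

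Other genes among the 12 largest increases of protein-coding genes have neuronal roles too. Srrm3, a splicing regulator of neuronal microexons, rose from 0.380, 0.922 and 0.306 to 12.9, 11.04 and 10.5 (4.48, adjusted p = 0.000617 from edgeR). Actl6b, the neuron-specific actin-like subunit of the BAF chromatin remodeller, rose from 0.146, 0.496 and 0.291 to 4.20, 4.58 and 4.79 (3.88, adjusted p = 0.00212). Celf6, an RNA-binding protein of neurons, rose from 0.0731, 0.662 and 0.306 to 4.001, 5.06 and 4.35 (3.72, adjusted p = 0.0118). Cntnap4, a neurexin-family adhesion protein, reached 4.10 on the log2 scale, Galnt9, a glycosyltransferase found mainly in brain, 3.88, and Amer3, an APC-binding protein of the WNT pathway, 4.83.

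A further 3 genes of those 12 were highest in the replicate that stood apart. Pax5, a transcription factor of B cells and midbrain, had 0.190, 0.425 and 0.378 in WT and 1.60, 13.1 and 1.67 in the libraries labelled Qk-/-, Runx3, a transcription factor of sensory neurons and T cells, had 0.0585, 0.402 and 0.451 in WT and 1.56, 11.2 and 1.75 in the libraries labelled Qk-/-, and Olfr1438-ps1, which is annotated as protein-coding in the table, had 0.0292, 0.307 and 0.102 in WT and 1.36, 9.84 and 0.540 in the libraries labelled Qk-/-. In each of the 3, replicate 2 lay far above the other replicates of its group. Without it the log2 fold changes were 2.32, 2.47 and 2.77, against 4.03, 3.99 and 4.80 with all 6 libraries, and none of the 3 passed without WT replicate 1, 2 or 3. Olfr1438-ps1 did not pass without the labelled Qk-/- replicate 2 either (adjusted p = 0.0613 in edgeR). Celf6 did not pass without WT replicate 3, and the other 8 genes passed with each library left out.

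**Figure D2:**
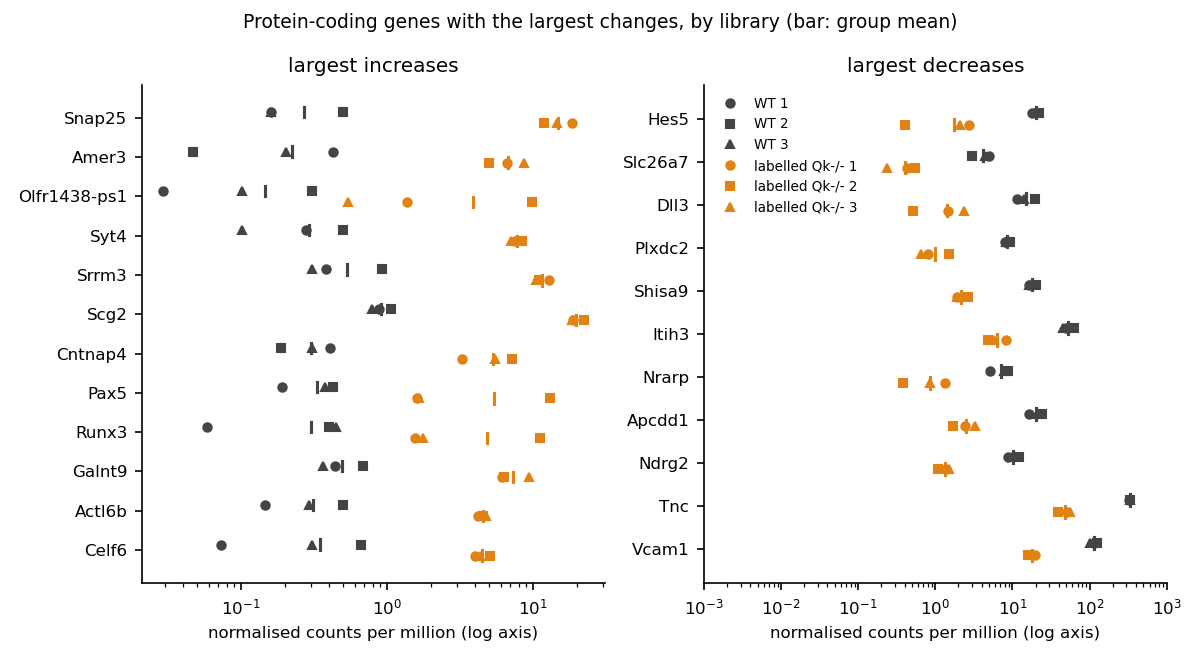
Normalised counts (CPM, log axis) in each library for the 12 protein-coding genes with the largest increases (left) and 11 of the 12 with the largest decreases (right), with WT in grey and the libraries labelled Qk-/- in orange; circles, squares and triangles are replicates 1, 2 and 3 and a short bar is the group mean. The genes were chosen among those whose groups did not overlap. In Pax5, Runx3 and Olfr1438-ps1 the orange square lies apart from the other orange points.

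As a group, 11 of 38 neuronal genes tested rose and 1 fell, with a median log2 fold change of 0.90. Those that rose included Gad1, which makes the transmitter GABA, from 6.04, 4.51 and 6.68 to 22.9, 23.03 and 23.97 (log2 fold change 2.02, SE 0.16, edgeR adjusted p = 0.000466). Celf4, a neuronal RNA-binding protein, rose from 1.84, 3.38 and 1.79 to 11.7, 16.1 and 11.1 (log2 fold change 2.48, SE 0.30, edgeR adjusted p = 0.00203). Dcx, the microtubule protein of migrating neuroblasts, rose as well (1.02, adjusted p = 0.012 from edgeR). Reln, the extracellular guidance protein of early cortical neurons, was the one that fell, from 131, 108 and 118 to 52.3, 47.6 and 52.2 (log2 fold change −1.23, SE 0.10, edgeR adjusted p = 0.000507). Neuronal identity genes did not move as a block: Tubb3 stood at −0.88 on the log2 scale without passing (adjusted p = 0.0806) and Rbfox3, the gene of the NeuN antigen, stood at 2.25 (adjusted p = 0.0832), and the transcription factor Rest, a repressor of neuronal genes that was looked up after the values were seen, stood at 0.02. The numbers were 15 and 3, with a median of 0.55, without the labelled Qk-/- replicate 2. Without WT replicate 3, 6 rose, without WT replicate 1, 7, and without the labelled Qk-/- replicate 3, 2 fell.

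Among 35 genes of glutamate and GABA receptors, 10 rose and 4 fell (median 0.70). The AMPA receptor gene Gria1 rose from 0.292, 0.662 and 0.320 to 3.52, 5.88 and 4.32 (log2 fold change 3.44, SE 0.43, edgeR adjusted p = 0.00263) while its relative Gria4 fell from 14.5, 14.7 and 17.01 to 4.74, 5.33 and 3.85 (log2 fold change −1.74, SE 0.17, edgeR adjusted p = 0.000844). Grin1, the obligatory subunit of NMDA receptors, rose (1.86, adjusted p = 0.000776 from edgeR). Both subunits of the GABA-B receptor fell, Gabbr2 from 168, 135 and 150.4 to 67.8, 66.96 and 62.4 and Gabbr1 from 137, 116 and 127 to 77.6, 65.6 and 78.8 (−1.20 and −0.77). The receptor genes thus moved in both directions. Relative to the WT mean the list lay at 0.32, 0.34 and 0.47 in the libraries labelled Qk-/-, and its median log2 fold change was 0.40 without replicate 2 of that group. The number that rose was 6 without WT replicate 1, WT replicate 2 or the labelled Qk-/- replicate 1 and 4 without WT replicate 3.

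Of 53 voltage-gated channel genes, 11 rose and 4 fell (median 0.29). Cacna2d1, an auxiliary subunit of calcium channels, rose from 38.1, 36.04 and 39.96 to 91.9, 109 and 86.2 (log2 fold change 1.33, SE 0.11, edgeR adjusted p = 0.000553). Other subunits of calcium channels made up several of the increases: Cacna2d3 (1.46), Cacnb2 (1.00), Cacna1a (1.07) and Cacna1b (1.04) all passed. The largest decrease was that of Kcnd2, which carries the A-type potassium current, from 105, 103 and 98.1 to 24.3, 16.02 and 24.7 (log2 fold change −2.23, SE 0.17, edgeR adjusted p = 0.000331). Without WT replicate 1, 2 or 3, 7 of the 53 rose, and without the labelled Qk-/- replicate 2, 15 rose and 7 fell. The number that fell was 2 without WT replicate 1 or 3 or the labelled Qk-/- replicate 3.

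Several glial genes moved the other way. Among the 12 largest decreases of protein-coding genes was Ndrg2, which is enriched in astrocytes (−2.93). Not all of those 12 are glial genes. Slc26a7, an anion exchanger (−3.37), Shisa9, an auxiliary subunit of AMPA receptors (−3.06), and the membrane protein gene Plxdc2 (−3.15) were also among them. Of 23 astrocyte genes, 10 fell and 1 rose, with a median of −0.52. Itih3, a chain of a hyaluronan-binding protease inhibitor family, fell from 49.3, 62.6 and 44.98 to 8.18, 4.89 and 5.73 (log2 fold change −3.05, SE 0.22, edgeR adjusted p = 0.000331). Apoe, the main lipid carrier secreted by astrocytes, fell from 213, 225 and 199.8 to 46.5, 27.9 and 48.9 (log2 fold change −2.37, SE 0.20, edgeR adjusted p = 0.000553). Clu, the secreted chaperone clusterin, fell from 331, 390.3 and 329 to 130.4, 79.8 and 139.7 (log2 fold change −1.58, SE 0.20, edgeR adjusted p = 0.00265).

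The defining astrocyte genes were divided. Gfap, the filament protein of astrocytes, fell from 1264, 1549.8 and 1361 to 598, 366 and 645 (log2 fold change −1.38, SE 0.20, edgeR adjusted p = 0.00507), but Aqp4, the water channel of astrocyte end-feet, rose from 876, 847 and 796 to 1379.8, 1409 and 1416 (log2 fold change 0.74, SE 0.08, edgeR adjusted p = 0.0012), the one member of the list that did so with all 6 libraries. Slc1a2, a glutamate transporter, had 2143, 1554 and 1942 in WT and 1444, 1128 and 1351 in the libraries labelled Qk-/- without passing (−0.52, adjusted p = 0.0535 from edgeR), and Aldh1l1, a folate enzyme used as a pan-astrocyte marker, stood at −0.24 on the log2 scale without passing (adjusted p = 0.44). Replicate 2 of the libraries labelled Qk-/- had the lowest median of this list, −0.80 relative to the WT mean against −0.37 and −0.35 in the others. Without WT replicate 1, 6 of the 23 fell, and without the labelled Qk-/- replicate 2, 12 fell and 3 rose.

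Of 24 neural stem and progenitor genes, 7 fell and 0 rose, with a median of −0.29. For the increases, 1 gene had an unadjusted p under 0.05 in edgeR and 1 passed in DESeq2. Tnc, the matrix glycoprotein tenascin C of the stem cell niche, fell from 322, 333 and 339 to 50.99, 39.2 and 55.7 (log2 fold change −2.77, SE 0.14, edgeR adjusted p = 0.000142). Slc1a3, the glutamate transporter of radial glia, fell from 1824, 1893 and 1719.9 to 626, 504 and 587 (log2 fold change −1.66, SE 0.10, edgeR adjusted p = 0.000242). Sox3 and Sox21, transcription factors of neural progenitors, fell by 1.17 and 0.62 on the log2 scale and Sox2 by 0.34. Nes and Pax6 did not pass. Of the 7, 4 passed without WT replicate 1, 2 or 3 or the labelled Qk-/- replicate 1, and 1 gene rose without replicate 2 or 3 of the latter.

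Of 14 genes of oligodendrocyte precursors, 6 fell and 1 rose (median −0.64). Pdgfra, the growth factor receptor that defines these precursors, fell from 68.3, 77.4 and 70.4 to 32.9, 24.8 and 32.2 (log2 fold change −1.26, SE 0.13, edgeR adjusted p = 0.0011). Gpr17, a receptor of precursors that are about to differentiate, fell from 103, 163 and 107 to 32.2, 13.8 and 33.02 (log2 fold change −2.23, SE 0.33, edgeR adjusted p = 0.0053). Lhfpl3 fell from 66.3, 93.9 and 77.3 to 27.7, 21.5 and 29.8 (log2 fold change −1.58, SE 0.17, edgeR adjusted p = 0.00122). The proteoglycan gene Vcan was the one that rose (0.59, adjusted p = 0.0163 from edgeR). Olig1, a glial fate gene, had 528, 579 and 655 in WT and 469.5, 246 and 517 in the libraries labelled Qk-/- without passing (−0.51, adjusted p = 0.228). Sox10, a transcription factor gene on the same list, was rare, with raw counts of 6 to 53 per library. Of 22 genes of mature oligodendrocytes and myelin, 5 fell and 1 rose, the median being 0.03. Gjc3, a gap junction protein of oligodendrocytes, fell from 82.95, 80.4 and 73.4 to 36.4, 28.5 and 33.1 (log2 fold change −1.27, SE 0.12, edgeR adjusted p = 0.000664). Mbp, which defines compact myelin, was at or below 1.06 in every library, and the one increase, of Mobp (0.102, 0.118 and 0.0873 against 1.27, 10.01 and 0.472), was largest in the replicate that stood apart. Of the 14 precursor genes, 4 fell without WT replicate 1, WT replicate 2 or the labelled Qk-/- replicate 1, and of the 22 myelin genes 2 fell without any 1 WT library or the labelled Qk-/- replicate 1. With any 1 WT library left out, neither list had an increase. The myelin list lay at −0.46, 0.03 and −0.28 in the libraries labelled Qk-/- relative to the WT mean, and its median log2 fold change was −0.17 without replicate 2 of that group, −0.06 without WT replicate 1 and 0.03 to 0.17 without any other library.

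Several targets and ligands of the Notch pathway fell. Hes5, the transcriptional repressor that Notch switches on in neural stem cells, had normalised counts of 17.8, 21.9 and 21.7 in WT and 2.73, 0.410 and 2.11 in the libraries labelled Qk-/- (log2 fold change −3.49, SE 0.49, edgeR adjusted p = 0.00432). The related targets Hey1 and Hey2 fell from 102, 119 and 109 to 58.8, 57.7 and 71.6 (−0.81, adjusted p = 0.0044 from edgeR) and from 12.1, 11.2 and 9.04 to 2.87, 4.89 and 3.88 (−1.48, adjusted p = 0.00623). Nrarp, a feedback inhibitor that Notch induces, fell from 5.15, 8.70 and 7.79 to 1.33, 0.376 and 0.843 (log2 fold change −3.05, SE 0.44, edgeR adjusted p = 0.00472). Of the ligands, Dll1 fell from 87.4, 103 and 97.3 to 33.3, 26.9 and 35.2 (log2 fold change −1.59, SE 0.13, edgeR adjusted p = 0.000424). Dll3, which acts within its own cell, fell from 11.6, 19.4 and 14.04 to 1.45, 0.512 and 2.34 (log2 fold change −3.33, SE 0.46, edgeR adjusted p = 0.00386), but Jag1 rose from 16.1, 14.1 and 15.9 to 30.8, 33.4 and 28.5 (log2 fold change 1.00, SE 0.12, edgeR adjusted p = 0.002). Hes1, another Notch target, stood at −0.27 on the log2 scale without passing (adjusted p = 0.144), the receptor gene Notch1 stood at 0.20 (adjusted p = 0.495), and Notch3 fell by 0.75. In all, 7 of 27 genes tested fell and 3 rose, with a median of −0.13, and 6 to 8 fell with each library left out. The number that rose was 6 without the labelled Qk-/- replicate 2, and the median lay between −0.21 and −0.09 over the libraries left out.

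The promoters of Hes5 and Hey2 are shown because both genes fell and each holds 2 copies of GTGGGAA, the core bound by the Notch effector RBPJ. The motif was searched on both strands, matches are in capitals on whichever strand they lie (TTCCCAC when on the other strand), and 2097 of 32851 promoters (6.38%) held at least 1. As before, the sequences are those of RefSeq (GRCm38.p6), the choice was made after the values were seen, and a match says nothing of binding.
Hes5 (chr4:154960673-154960972, plus strand): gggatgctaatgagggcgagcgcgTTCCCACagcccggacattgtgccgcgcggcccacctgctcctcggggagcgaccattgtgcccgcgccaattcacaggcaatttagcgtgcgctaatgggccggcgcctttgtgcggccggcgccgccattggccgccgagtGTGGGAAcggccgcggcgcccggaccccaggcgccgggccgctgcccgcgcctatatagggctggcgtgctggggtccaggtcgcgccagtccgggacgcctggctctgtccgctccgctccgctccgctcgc
Hey2 (chr10:30842734-30843033, minus strand): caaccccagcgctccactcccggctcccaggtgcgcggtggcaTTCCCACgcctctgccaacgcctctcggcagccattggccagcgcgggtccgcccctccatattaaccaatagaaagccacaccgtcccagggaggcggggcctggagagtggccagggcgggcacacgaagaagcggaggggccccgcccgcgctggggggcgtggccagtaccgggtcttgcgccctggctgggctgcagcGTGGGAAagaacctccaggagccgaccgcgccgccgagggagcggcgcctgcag
Counted from the start site as 0, the matches began at −226 and −83 in Hes5 and at −207 and −4 in Hey2.

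The FGF pathway, whose ligand bFGF was in the medium, showed 9 of 32 genes higher and 3 lower (median 0.33). The receptors parted: Fgfr1 rose from 193, 172 and 209 to 304, 245 and 326 (0.61, adjusted p = 0.0215 from edgeR). Fgfr2 rose from 67.8, 56.8 and 66.7 to 89.4, 89.1 and 90.8 (0.49, adjusted p = 0.0166), but Fgfr3 fell from 361, 342 and 379 to 199, 159.9 and 226 (log2 fold change −0.89, SE 0.13, edgeR adjusted p = 0.00469). Of the genes that FGF signalling induces, Etv5, an ETS transcription factor, rose from 156, 133 and 166 to 364, 257 and 358 (log2 fold change 1.11, SE 0.15, edgeR adjusted p = 0.00376), the feedback inhibitors Spry1 and Spry4 rose by 0.80 and 0.94 on the log2 scale, and the phosphatase gene Dusp4 rose by 1.31. Il17rd, a transmembrane inhibitor of FGF receptors, fell from 47.5, 45.2 and 47.1 to 14.4, 13.97 and 12.6 (log2 fold change −1.77, SE 0.11, edgeR adjusted p = 0.000242). The number that rose was 2 to 4 without any 1 WT library or without the labelled Qk-/- replicate 1 or 3, and 11 without replicate 2 of that group.

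In the WNT pathway, 9 of 46 genes rose and 3 fell (median 0.33). Among them were 4 frizzled receptor genes, Fzd6 from 1.99, 1.09 and 1.41 to 10.1, 10.9 and 11.3 (log2 fold change 2.83, SE 0.25, edgeR adjusted p = 0.000578) and Fzd1, Fzd4 and Fzd7 by 1.03, 0.92 and 0.79 on the log2 scale, as did Lgr5 (1.69) and Lgr4 (1.01), receptors for the R-spondins that strengthen WNT signals. The gene of the secreted antagonist Wif1 rose from 29.2, 26.9 and 31.4 to 106, 118 and 132 (log2 fold change 2.02, SE 0.11, edgeR adjusted p = 0.000171). That of the membrane-bound antagonist Apcdd1 fell from 16.3, 24.04 and 20.8 to 2.40, 1.71 and 3.29 (log2 fold change −3.02, SE 0.26, edgeR adjusted p = 0.000568). Wnt7b, a ligand of the forebrain, fell from 61.5, 52.5 and 64.7 to 29.4, 27.8 and 26.9 (log2 fold change −1.09, SE 0.11, edgeR adjusted p = 0.0011). Without WT replicate 1, 6 of the 46 rose, and without the labelled Qk-/- replicate 2, 14 rose and 7 fell with a median of 0.21. With total counts alone 2 fell.

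Of 42 BMP and TGF-beta genes, 6 rose and 3 fell, with a median of 0.10. Tgfbr2 and Tgfbr3, receptors for TGF-beta, rose from 29.7, 27.1 and 32.7 to 96.4, 74.1 and 94.7 (log2 fold change 1.57, SE 0.13, edgeR adjusted p = 0.000538) and from 9.24, 6.83 and 8.83 to 24.9, 23.5 and 23.4 (log2 fold change 1.52, SE 0.14, edgeR adjusted p = 0.000777), while the BMP receptor gene Bmpr1b fell from 69.6, 66.5 and 63.1 to 34.3, 31.2 and 33.1 (log2 fold change −1.01, SE 0.09, edgeR adjusted p = 0.000701). The BMP antagonist Nog fell from 24.1, 19.8 and 24.6 to 10.01, 3.89 and 9.68 (−1.52, adjusted p = 0.0211 from edgeR). The BMP target Id1 rose from 73.8, 80.97 and 85.2 to 109, 141 and 108 (0.58, adjusted p = 0.0252), and Smad7, an inhibitory target, did not pass (adjusted p = 0.991). Of 16 Hedgehog genes, 4 rose and 1 fell (median 0.34). Hhip, a membrane protein that binds and restrains the ligand, rose from 2.91, 3.57 and 4.09 to 9.19, 13.7 and 9.56 (log2 fold change 1.62, SE 0.22, edgeR adjusted p = 0.00398), the co-receptor genes Gas1 and Boc by 0.86 and 0.58 on the log2 scale, and Ptch1, the receptor and target of the pathway, fell from 193, 167 and 189 to 149, 115 and 124 (−0.50, adjusted p = 0.0314). Without WT replicate 2 or 3, 3 BMP and TGF-beta genes rose, and without WT replicate 1 or 3 or the labelled Qk-/- replicate 1, 2 Hedgehog genes did. The BMP and TGF-beta genes that fell numbered 1 without any 1 WT library or the labelled Qk-/- replicate 1, and 5 without replicate 2 of that group, with medians of 0.13 to 0.26 over the libraries left out. The Hedgehog median was 0.16 without the labelled Qk-/- replicate 2 and 0.22 without WT replicate 3, and Ptch1 did not pass with total counts alone, without any 1 WT library or without the labelled Qk-/- replicate 3.

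**Figure D3:**
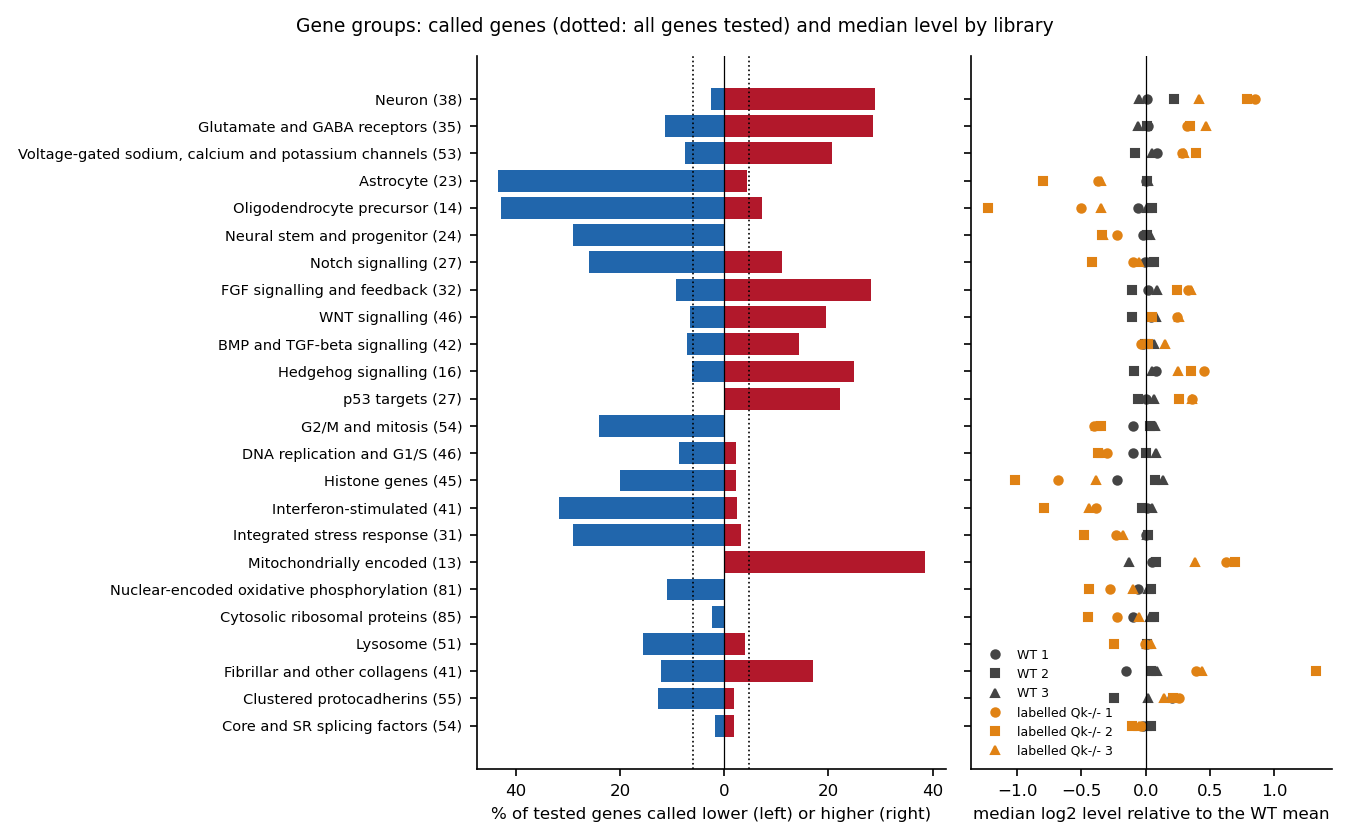
Gene groups with the number of genes tested in parentheses. The dotted lines cover genes of all types, of which 10.7% were called. Of the protein-coding genes tested alone, 13.9% were called. Left, the percentage of those genes called lower (blue) or higher (red), with dotted lines at 5.96 and 4.74%, the shares over all genes tested; right, the median log2 level of the group in each library relative to the WT mean, with WT in grey, the libraries labelled Qk-/- in orange and circles, squares and triangles for replicates 1, 2 and 3. Neuronal groups extend to the right and astrocyte, precursor, stem cell and interferon-stimulated groups to the left, and the orange squares (replicate 2) often lie farthest from the WT points.

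The mitotic genes that were called were all lower. Of 54 genes of the G2 and M phases, 13 fell and 0 rose, with a median of −0.42 (at an unadjusted p under 0.05 in edgeR, 33 and 1, and in DESeq2, 22 and 0). The median was −0.40, −0.35 and −0.39 in the 3 libraries labelled Qk-/- relative to the WT mean. Top2a, the topoisomerase that untangles replicated chromosomes, fell from 285, 310.4 and 311 to 220.4, 242 and 229.7 (log2 fold change −0.39, SE 0.08, edgeR adjusted p = 0.0214). Kif11, the motor that separates spindle poles, fell from 44.5, 50.1 and 47.6 to 28.7, 34.95 and 33.3 (log2 fold change −0.55, SE 0.11, edgeR adjusted p = 0.0201). Foxm1, a transcription factor that drives mitotic genes, fell from 28.1, 29.97 and 32.4 to 20.6, 16.6 and 21.4 (−0.62, adjusted p = 0.0242 from edgeR). Mki67, the proliferation marker, had 420.1, 426 and 459.6 in WT and 367, 378 and 365 in the libraries labelled Qk-/- without passing (−0.23, adjusted p = 0.0981). The number that fell was 7 with the replicate block or with total counts alone, 28 without the labelled Qk-/- replicate 2, 7 without replicate 3 of that group, 1 without WT replicate 1 and 0 without WT replicate 2 or 3 or the labelled Qk-/- replicate 1, while the median stayed between −0.45 and −0.38. Of 46 genes of the G1 and S phases, 4 fell and 1 rose, with a median of −0.37 (at an unadjusted p under 0.05 in edgeR, 24 and 1, and in DESeq2, 10 and 1). The difference between both phase lists was not tested. Rrm2, a subunit of ribonucleotide reductase, fell from 22.5, 23.2 and 25.3 to 14.4, 9.84 and 9.61 (log2 fold change −1.06, SE 0.18, edgeR adjusted p = 0.00836), and Rpa1, which coats single-stranded DNA, was the one that rose (0.57). Of this list, 11 fell without the labelled Qk-/- replicate 2, 2 without replicate 3 of that group or with total counts alone, and 0 or 1 without any other library. Rpa1 did not pass without any 1 WT library.

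Histone genes were lower by a median of 0.63 on the log2 scale, with 9 of 45 called lower and 1 higher. Linker histone genes were among them, such as Hist1h1d from 50.97, 65.4 and 73.8 to 31.4, 27.8 and 37.7 (log2 fold change −0.97, SE 0.17, edgeR adjusted p = 0.00979). Relative to the WT mean, the list lay at −0.68, −1.02 and −0.39 in the libraries labelled Qk-/- and between −0.22 and 0.13 in WT. The one that rose was Hist3h2a (0.90). The number that fell was 20 without the labelled Qk-/- replicate 2, 7 without WT replicate 1, 8 without the labelled Qk-/- replicate 3 and 1 without any other library, and 3 histone genes rose without that replicate 2. Of 27 p53 targets, 6 rose and 0 fell in edgeR, 11 and 0 at an unadjusted p under 0.05, and DESeq2 gave 8 and 0 (median 0.40). Plk2, a stress-induced kinase, rose from 84.5, 81.6 and 90.8 to 207, 204 and 215 (log2 fold change 1.28, SE 0.08, edgeR adjusted p = 0.000242). Sesn1, an antioxidant sestrin, rose from 61.6, 60.9 and 68.2 to 96.8, 93.8 and 104 (log2 fold change 0.63, SE 0.09, edgeR adjusted p = 0.00469). Mdm2, the ligase that degrades p53, rose from 50.9, 47.1 and 48.9 to 68.7, 59.9 and 64.5 (0.40, adjusted p = 0.0336 from edgeR). Cdkn1a, the cell cycle inhibitor best known as a p53 target, had 18.2, 21.1 and 22.6 in WT and 31.6, 21.7 and 31.9 in the libraries labelled Qk-/- and did not pass (0.47, adjusted p = 0.132). The number of p53 targets that rose was 12 without the labelled Qk-/- replicate 2, 2 without WT replicate 1 and 3 without any other 1 library.

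Interferon-stimulated genes fell: 13 of 41 were lower and 1 higher, with a median of −0.60. The higher one was Tap2, a peptide transporter of antigen presentation (0.50), which did not pass with the replicate block, with total counts alone or without any 1 library other than the labelled Qk-/- replicate 2. Ifit2, which binds viral RNA and blocks its translation, fell from 33.3, 36.5 and 34.3 to 12.6, 12.8 and 14.2 (log2 fold change −1.39, SE 0.11, edgeR adjusted p = 0.000446). Ifit1 fell from 14.01, 12.8 and 14.7 to 6.12, 3.93 and 4.69 (log2 fold change −1.49, SE 0.19, edgeR adjusted p = 0.00273). Gbp3, a guanylate-binding protein, fell from 28.4, 30.7 and 30.8 to 16.003, 16.1 and 16.6 (log2 fold change −0.88, SE 0.10, edgeR adjusted p = 0.00201). Oasl2, a member of the oligoadenylate synthetase family, fell from 13.9, 14.1 and 16.2 to 7.37, 7.14 and 7.30 (log2 fold change −1.02, SE 0.13, edgeR adjusted p = 0.00286). These 4 genes were at counts of moderate size. The lower genes numbered 4 without WT replicate 3, 6 without WT replicate 1 or 2, 7 without the labelled Qk-/- replicate 1 and 15 without replicate 2 of that group.

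The promoters of Ifit1 and Ifit3b, 2 of the genes that fell, are shown as examples of the interferon-stimulated response element, whose core each holds in 2 copies. The core searched was TTTC, any 2 bases and TTTC, on both strands. Matches are in capitals on whichever strand they lie, and 1131 of 32851 promoters (3.44%) held at least 1. The sequences are those of RefSeq (GRCm38.p6) and were chosen after the values were seen.
Ifit1 (chr19:34640639-34640938, plus strand): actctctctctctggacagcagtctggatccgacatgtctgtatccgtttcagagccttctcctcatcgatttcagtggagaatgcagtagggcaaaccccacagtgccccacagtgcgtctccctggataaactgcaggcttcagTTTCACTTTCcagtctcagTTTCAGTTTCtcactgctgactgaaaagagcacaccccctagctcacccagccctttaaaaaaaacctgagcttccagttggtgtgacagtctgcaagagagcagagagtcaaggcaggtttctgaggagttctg
Ifit3b (chr19:34607707-34608006, plus strand): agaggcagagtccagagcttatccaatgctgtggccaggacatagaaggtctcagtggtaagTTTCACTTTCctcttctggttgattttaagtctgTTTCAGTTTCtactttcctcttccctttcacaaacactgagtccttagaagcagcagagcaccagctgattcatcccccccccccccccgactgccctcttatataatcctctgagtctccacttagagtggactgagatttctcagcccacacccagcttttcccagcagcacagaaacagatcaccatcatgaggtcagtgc
Counted from the start site as 0, the matches began at −104 and −85 in Ifit1 and at −188 and −154 in Ifit3b.

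Of 31 genes of the integrated stress response, 9 fell and 1 rose (median −0.29). The members that moved included enzymes of serine synthesis, Phgdh from 209, 233 and 227 to 107, 64.3 and 129.8 (log2 fold change −1.15, SE 0.22, edgeR adjusted p = 0.0164). Psat1 fell from 186, 209 and 190.2 to 134, 104 and 142 (log2 fold change −0.62, SE 0.13, edgeR adjusted p = 0.0196). The methionyl-tRNA synthetase gene Mars fell from 62.6, 68.7 and 65.3 to 39.99, 31.3 and 41.3 (log2 fold change −0.80, SE 0.12, edgeR adjusted p = 0.00609). Atf4, the transcription factor that defines the response, had 153, 172 and 152 in WT and 124, 109 and 145 in the libraries labelled Qk-/- without passing (−0.34, adjusted p = 0.115 from edgeR), and the lipoprotein receptor gene Vldlr was the member that rose (0.72, adjusted p = 0.0026). With single libraries left out the number that fell was 12 without the labelled Qk-/- replicate 2, 0 without WT replicate 3 and 1 to 4 without any other, and 5 with total counts alone. The genes that rose numbered 3 without the labelled Qk-/- replicate 2.

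The medians of the genes of the mitochondrial genome and of nuclear genes of the respiratory chain had opposite signs. Of the 13 protein-coding mitochondrial genes, 5 rose and 0 fell in edgeR, 7 and 0 at an unadjusted p under 0.05, and 6 and 0 in DESeq2 (median 0.52). The cytochrome b gene mt-Cytb rose from 13917, 14214 and 12509 to 21455, 20182 and 17431 (log2 fold change 0.54, SE 0.10, edgeR adjusted p = 0.0149). mt-Nd1, a subunit of complex I, rose from 4021, 4208 and 3692 to 6194, 6222 and 5179.7 (log2 fold change 0.56, SE 0.10, edgeR adjusted p = 0.0128), but mt-Co1, a subunit of complex IV, stood at 0.00. Of 81 nuclear-encoded genes, 9 fell and 0 rose in edgeR, 31 and 1 at an unadjusted p under 0.05, and DESeq2 gave 18 and 0 (median −0.27). The share called in edgeR, 11.1%, was below the 13.9% of all protein-coding genes tested. Sdhb, the iron-sulphur subunit of complex II, fell from 101, 110.4 and 108 to 72.4, 61.97 and 81.1 (log2 fold change −0.57, SE 0.11, edgeR adjusted p = 0.0183). Cycs, the gene of cytochrome c, fell from 48.4, 52.6 and 49.3 to 34.3, 35.2 and 38.2 (log2 fold change −0.48, SE 0.10, edgeR adjusted p = 0.0193). The 85 ribosomal protein genes had a median of −0.24, with Rps20 and Rpl5 lower (−0.31 and −0.33) and 0 higher in edgeR. At an unadjusted p under 0.05 the numbers were 25 and 0, in DESeq2 12 and 0, and with the replicate block 0 and 0. Without the labelled Qk-/- replicate 2, 10 ribosomal genes were lower, without replicate 3 of that group 3, and without any other library or with total counts alone 0, and the ribosomal median was −0.15 without that replicate 2 and −0.37 without replicate 3. The mitochondrial genes that rose numbered 7 without the labelled Qk-/- replicate 2, 3 without WT replicate 2 and 0 without WT replicate 1 or 3 or the labelled Qk-/- replicate 1. The nuclear genes that fell numbered 19 without the labelled Qk-/- replicate 2, 5 with total counts alone and 0 without replicate 1 of that group or any 1 WT library.

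Of 51 lysosomal genes, 8 fell and 2 rose, with a median of −0.03. Npc1, which exports cholesterol from the lysosome, fell from 148, 131 and 153 to 67.5, 55.96 and 63.5 (log2 fold change −1.21, SE 0.11, edgeR adjusted p = 0.000578). Lamp1, an abundant protein of the lysosomal membrane, fell from 950.4, 1069 and 1016 to 513, 412 and 559 (log2 fold change −1.03, SE 0.12, edgeR adjusted p = 0.00202). The protease gene Ctsb fell from 708, 806 and 749.97 to 477, 350.5 and 542 (−0.73, adjusted p = 0.0228 from edgeR). Genes of fatty acid uptake and oxidation changed in both directions, 8 of 46 lower and 5 higher (median −0.11). Enzymes of mitochondrial oxidation were among those that fell, such as Decr1 from 4.68, 5.13 and 5.36 to 1.45, 1.43 and 1.06 (log2 fold change −1.94, SE 0.26, edgeR adjusted p = 0.00312), Hadhb (−0.66) and Cpt1a (−0.75), and the acyl-CoA synthetase genes Acsl1, Acsl3 and Acsl4 rose by 0.86, 0.39 and 0.62 on the log2 scale, as did Fabp5, a fatty acid carrier (0.77, adjusted p = 0.00286 from edgeR). Without any 1 WT library or the labelled Qk-/- replicate 1, 3 lysosomal genes and 2 or 3 genes of fatty acid oxidation fell, and 1 to 3 of the latter rose. Without the labelled Qk-/- replicate 2 the lysosomal list had 10 genes higher and 10 lower with a median of 0.04, the other medians with 1 library left out lying between −0.15 and 0.

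Matrix and adhesion genes were called in both directions. Among 41 collagen genes 7 rose and 5 fell. The fibrillar collagen gene Col5a1 rose from 19.1, 15.6 and 20.7 to 46.6, 42.6 and 44.3 (log2 fold change 1.27, SE 0.13, edgeR adjusted p = 0.0011), Col6a1 and Col6a2, which form collagen VI, rose by 0.67 and 0.97 on the log2 scale, and Col4a5, a chain of basement membrane collagen, fell from 89.9, 102 and 96.8 to 33.6, 34.6 and 36.9 (log2 fold change −1.46, SE 0.09, edgeR adjusted p = 0.000242). The median of 1.02 was 0.38 without the labelled Qk-/- replicate 2, in which the list lay 1.32 above the WT mean, against 0.39 and 0.44 in the other libraries of that group, and without any other 1 library 3 or 4 collagen genes rose and 1 to 3 fell. Of 46 matrix glycoprotein and proteoglycan genes 5 rose and 6 fell, of 34 laminin and integrin genes 4 and 2, of 43 matrix protease and inhibitor genes 6 and 6, and of 20 cadherin and catenin genes 1 and 5. Beside Tnc, Sparc, a collagen-binding glycoprotein, fell from 1379, 1436 and 1327 to 779, 621 and 760.2 (log2 fold change −0.94, SE 0.11, edgeR adjusted p = 0.00159). Itgb8, an integrin that activates latent TGF-beta, fell from 287, 275 and 263 to 83.2, 103 and 73.5 (log2 fold change −1.67, SE 0.13, edgeR adjusted p = 0.000409). Mmp24, a membrane-bound metalloprotease of neurons, rose from 4.97, 5.77 and 4.98 to 27.6, 20.02 and 28.4 (log2 fold change 2.28, SE 0.17, edgeR adjusted p = 0.000331). Vcam1, an adhesion molecule of the stem cell niche, fell from 115, 127 and 102 to 19.4, 16.2 and 17.7 (log2 fold change −2.69, SE 0.12, edgeR adjusted p = 0.000108). Cdh11, a cadherin of mesenchymal and neural cells, fell from 36.4, 44.01 and 41.9 to 7.30, 8.51 and 7.37 (log2 fold change −2.40, SE 0.13, edgeR adjusted p = 0.000154). In the same order, these 4 lists had 10, 6, 9 and 2 genes higher and 9, 5, 6 and 6 lower without the labelled Qk-/- replicate 2. With any other 1 library left out, 0 to 3, 1 to 3, 2 or 3 and 1 rose, and 3 to 6, 1 or 2, 4 or 5 and 3 to 5 fell.

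Clustered protocadherins give neurons their surface identity and are encoded in 3 neighbouring arrays. Of 55 tested, 7 fell and 1 rose, a share of 14.5%, near the 13.9% called of all protein-coding genes tested. The 7 were all of the beta array, Pcdhb2 and Pcdhb4 to Pcdhb9, such as Pcdhb5 from 19.5, 18.5 and 15.3 to 7.46, 8.75 and 7.99 (log2 fold change −1.14, SE 0.14, edgeR adjusted p = 0.00263). Pcdhb9 fell from 62.5, 60.7 and 56.3 to 36.04, 31.7 and 38.7 (log2 fold change −0.75, SE 0.11, edgeR adjusted p = 0.00471), and Pcdhb4 to Pcdhb9 were consecutive among the genes tested. The one that rose was Pcdhgb4 of the gamma array (0.50, adjusted p = 0.0429 from edgeR), which did not pass with the replicate block, with total counts alone or without any 1 library other than the labelled Qk-/- replicate 2. The median of all 55 was 0.20, and 0.04 to 0.32 over the libraries left out. Neighbouring genes of an array share much sequence, so reads may have been divided between them by the counting, and the number that fell was 4 to 6 without any 1 library other than the labelled Qk-/- replicate 2 and 9 without that one.

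Genes of the STAR family and of other RNA-binding proteins that regulate splicing or stability changed in both directions. Of 46 genes, 8 rose and 5 fell, and the median was −0.01. Rbfox1 and Rbfox2, splicing regulators that bind GCATG, rose from 1.10, 0.733 and 0.597 to 5.65, 6.05 and 5.09 (log2 fold change 2.78, SE 0.31, edgeR adjusted p = 0.00148) and from 67.8, 65.4 and 62.5 to 118, 106 and 117 (log2 fold change 0.80, SE 0.09, edgeR adjusted p = 0.00134), and Nova1, a neuronal splicing regulator, fell from 127, 119 and 121 to 66.8, 63.1 and 65.98 (log2 fold change −0.91, SE 0.08, edgeR adjusted p = 0.0006). The STAR family relatives Khdrbs1 and Khdrbs3 did not pass (0.09 and −0.17). In the general splicing machinery, 1 of 54 genes rose, the RNA helicase Ddx5 (0.59, adjusted p = 0.0155 from edgeR), and 1 fell, Prpf4 (−0.43, adjusted p = 0.036), which did not pass with the replicate block, with total counts alone or without any 1 library other than the labelled Qk-/- replicate 2. Ddx5 did not pass without any 1 WT library. The median was −0.09. Without 1 of the other libraries than the labelled Qk-/- replicate 2, 4 or 5 of the 46 rose and 2 or 3 fell, and without that replicate 8 and 9. With total counts alone 3 of the 46 fell.

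By the gene types given in the table, 14610 of the genes tested were protein-coding and 5761 of other types. Calls were rarer among the latter, 143 (2.48%) against 2036 (13.9%), and more of them were increases, 101 higher and 42 lower against 864 and 1172. The 4 largest classes of other genes all lay above 0 in the median: 0.49 for the TEC class (predicted loci that await experimental support) with 41 of 1595 higher and 9 lower, 0.23 for processed pseudogenes with 5 of 1007 higher and 3 lower, 0.40 for lincRNA with 24 of 935 higher and 13 lower, and 0.40 for antisense genes with 11 of 781 higher and 4 lower. Without the labelled Qk-/- replicate 2 these medians were 0.26, 0.15, 0.18 and 0.19, and 167 genes of other types were higher and 92 lower. Among 99 snoRNA and 77 miRNA genes 0 passed in edgeR. At an unadjusted p under 0.05, 2 snoRNA genes were higher and 0 lower and 4 miRNA genes higher and 1 lower, and DESeq2 called 3 and 2 higher and none lower.

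The share of counts by type showed the same replicate apart. Protein-coding genes took 88.3, 90.7 and 88.9% of the counts in WT and 86.1, 85.9 and 88.3% in the libraries labelled Qk-/-, lincRNA 3.91, 2.73 and 3.57% against 4.31, 5.44 and 3.92%, and TEC loci 0.403, 0.247 and 0.351% against 0.442, 0.649 and 0.394%. The groups did not overlap for protein-coding genes and lincRNA, though the margins were narrow, and they overlapped for TEC loci. Over 27 types the exact two-sided permutation test gave 0.1, its smallest value, for 14, and no adjusted p was under 0.193 (Benjamini-Hochberg). Replicate 2 of the libraries labelled Qk-/- was also the least deep, and the part of depth in these shares was not tested.

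**Figure D4:**
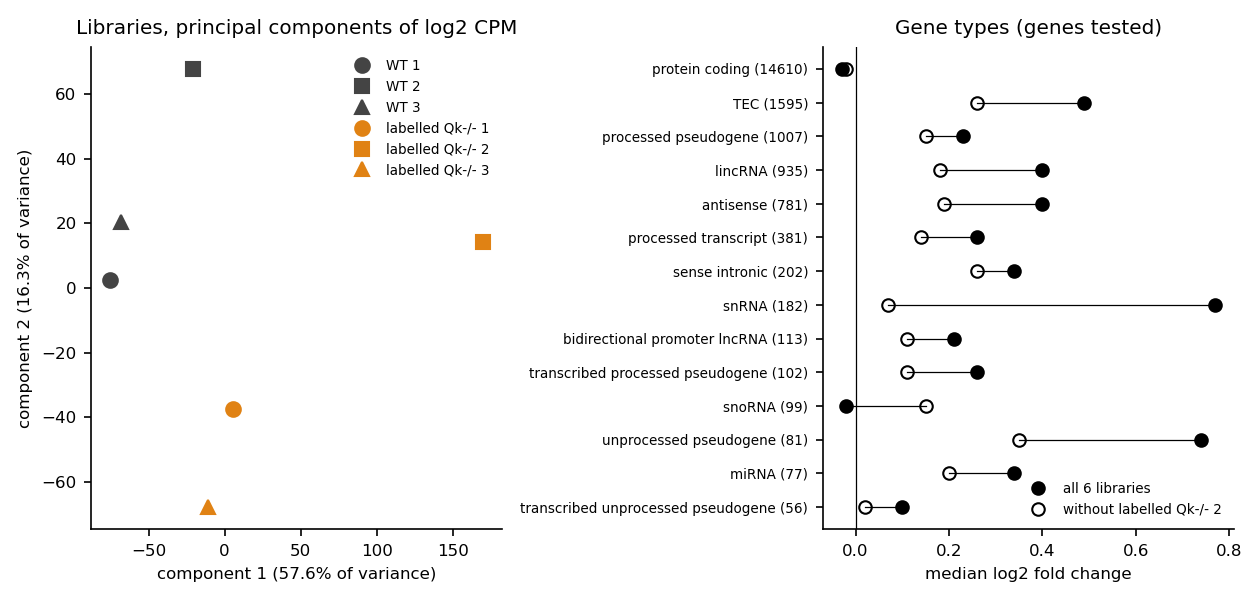
Left, the 6 libraries on the first and second principal components of log2 CPM, with 57.6 and 16.3% of the variance; WT in grey, the libraries labelled Qk-/- in orange. Right, the median log2 fold change of each gene type with 50 or more genes tested, over all 6 libraries (filled) and without the labelled Qk-/- replicate 2 (open). Replicate 2 lies alone on the right of the left panel, and without it every class shown except snoRNA lies closer to 0.

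Of the genes of other types with a mean log2 CPM of at least 0, those with the largest increases and groups that did not overlap were the lincRNA genes AC131109.1 (0.102, 0.189 and 0.0873 against 1.36, 9.39 and 0.573), Gm48740 (0.161, 0.402 and 0.349 against 1.96, 15.6 and 0.911) and Gm36380 (0.0439, 0.307 and 0.160 against 1.11, 7.79 and 0.658), the processed transcript 4930556M19Rik (0.219, 0.118 and 0.291 against 1.11, 4.75 and 1.23) and a pseudogene. Without the labelled Qk-/- replicate 2 the log2 fold changes of the first 4 were 2.96, 2.25, 2.42 and 2.45, against 4.91, 4.34, 4.24 and 3.45 with all 6 libraries, and Gm36380 did not pass (adjusted p = 0.0667 in edgeR). The pseudogene, Gm2830 of the processed class, was even across replicates, at 0.980, 0.733 and 0.917 in WT and 10.9, 11.6 and 10.1 in the libraries labelled Qk-/- (log2 fold change 3.62, SE 0.20, edgeR adjusted p = 0.000154). Of the decreases, Gm45424, a TEC locus, fell from 2.53, 3.81 and 3.86 to 0.449, 0.273 and 0.135 (log2 fold change −3.56, SE 0.52, edgeR adjusted p = 0.00496), the Serpina3h locus, annotated as a pseudogene of a protease inhibitor cluster, from 4.66, 4.42 and 4.71 to 0.574, 0.273 and 0.675 (log2 fold change −3.14, SE 0.38, edgeR adjusted p = 0.0021), and Gm5466, Gm36660 and 2610316D01Rik fell by 2.39, 1.95 and 1.88 on the log2 scale. AC131109.1, Gm48740, Gm36380, 4930556M19Rik and Gm36660 did not pass without WT replicate 1, 2 or 3. Pseudogenes and members of the Serpina3 cluster share sequence with other genes, so their counts may include reads of those.

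Some called genes had no count at all in one group. Ratios are of pooled counts, with 3 counts put in for the group at 0, and leave out the spread between libraries. Abcg1, a sterol exporter, had 14, 17 and 31 counts in the libraries labelled Qk-/- against 0 in every WT library, a ratio of 26.3. Ffar2, a receptor for short-chain fatty acids, had 11, 40 and 16 counts against 0 (ratio 28.4), and C1qtnf7 had 10, 34 and 18 against 0 (ratio 26.3). In the other direction Krt28, a keratin gene, had 30, 11 and 37 counts in WT and 0 in every library labelled Qk-/- (20.4-fold lower by the same ratio). These 4 were picked after their values were seen. The called genes 4933415F23Rik, Gm11735, Gm37039 and Gm19726 also had a group at 0. Ffar2 and C1qtnf7 had the most counts, 40 and 34, in replicate 2, the least deep library and the one that stood apart. All were rare transcripts at depths of 28154202 counts or more.

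The share of genes called and its direction varied between chromosomes. On chromosome 8, 33 of 779 protein-coding genes tested rose and 124 fell (20.2% called), with a median log2 fold change of −0.23, the lowest of the autosomes. On chromosome 15, 59 of 583 rose and 26 fell (14.6% called), with a median of 0.14. On chromosome 1, 78 of 900 rose and 45 fell (13.7% called), with 0.13. Over all protein-coding genes tested, 13.9% were called, 864 higher and 1172 lower, so chromosomes 15 and 1 lay near that share. On the X chromosome 35 of 458 rose and 54 fell (19.4% called). The medians of chromosomes 8, 15 and 1 were −0.20, 0.16 and 0.08 without the labelled Qk-/- replicate 2. Without that library 55 genes of chromosome 8 rose and 210 fell. No test of a difference between chromosomes was made.

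**Figure D5:**
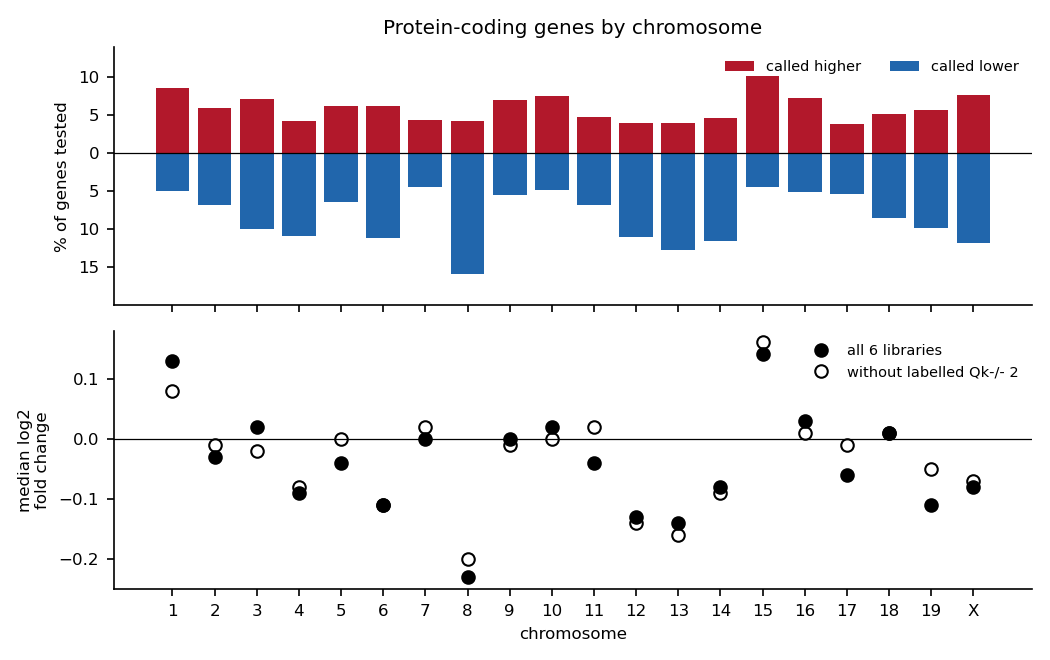
Protein-coding genes by chromosome: top, the percentage of genes tested that were called higher (red, upward) or lower (blue, downward); bottom, the median log2 fold change over all 6 libraries (filled) and without the labelled Qk-/- replicate 2 (open). Of the autosomes, chromosome 8 has the lowest median, −0.23, and chromosomes 15 and 1 the highest, 0.14 and 0.13. The X chromosome is shown, and Y and the mitochondrial genome are not.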

How the data were processed

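The authors deposited whole-number counts per gene for the 6 NLPC libraries, summed over exons, made per the study's methods and processing notes with STAR 2.6.1b on mm10 and HTSeq 0.11.0. The notes also name HISAT2 2.0.4 and featureCounts without a role. No normalisation had been applied. The table's gene names and types were used as given, and positions from GENCODE M21 matched 20364 of the 20371 genes tested. The lens table served only for the marker check, and the HLE-B3 table was not used.

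Genes were kept by filterByExpr (minimum count 10, minimum total 15), scaled by TMM and tested with edgeR 4.0.16 (quasi-likelihood, R 4.3.3) on the labelled Qk-/- against WT, with Benjamini-Hochberg adjustment over all genes tested and a threshold of 0.05. Log2 CPM (counts scaled to library size) in the principal components and list levels used a prior count of 2. Totals were 28154202 to 68243360 counts per library. Scripts were tested on simulated data in which 200 genes changed by 2-fold or 4-fold. edgeR called 42% of the 2-fold and 57% of the 4-fold changes, and 4.81% of its calls were unchanged genes. DESeq2 called 52 and 64%, but 34.1% of its calls were unchanged genes. These shares hold for the simulated setting only: 200 of 20371 genes were changed, far fewer than were called in the data. The simulated counts were also drawn with the dispersions that edgeR fitted. With no gene changed, edgeR called 0 genes and DESeq2 17. Fold changes come from the fit, and the common biological coefficient of variation was 0.411.

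Named were Qk, the 12 protein-coding genes with the largest increase and the 12 with the largest decrease among called genes with a mean log2 CPM of at least 1 and groups that did not overlap, the 5 of other types in each direction at a mean of at least 0, and from each gene list up to 6 called members with the smallest adjusted p and its defining members. Some genes that this rule names are not reported here. Further members and genes with no count in one group were chosen after their values were seen. The comparison, the members and the lists were chosen with earlier results of these data known. Alternatives were other scalings, other filters, DESeq2, a minimum change of 1.5-fold, the replicate block and each library left out. Leaving out replicate 2 of both groups was added after seeing the data. Replicate numbers come from the labels. Deviations from the group means of same-numbered libraries correlated at 0.12, 0.32 and 0.15, but WT replicate 1 correlated most with the labelled Qk-/- replicate 3 (0.23). These values do not settle whether the numbers pair the libraries. The main test used no pairing, and the replicate block was an alternative only.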

Additional observations from a re-analysis of the deposited data

How the results depend on the processing

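Of 2179 genes called, DESeq2 gave 3826, a minimum change of 1.5-fold 366, leaving out replicate 2 of both groups (chosen after seeing the data) 4036, and leaving out 1 library 681 to 3797. For the genes called higher the values were 2032, 201, 1970 and 344 to 1728, and 1452 when every gene with at least 1 count was tested. For the genes called lower they were 165 with the minimum change, 2066 without replicate 2 of both groups and 337 to 2069 without 1 library. The excess of lower over higher calls turned with DESeq2, 2032 higher and 1794 lower, and with total counts alone, 929 higher and 892 lower. For protein-coding genes they were 3237, 346, 3644 and 652 to 3538, and for genes of other types 589, 20, 392 and 29 to 259, with 423 when every gene with at least 1 count was tested. The cause of these differences was not tested. The log2 fold change of Qk no longer passed when every gene with at least 1 count was tested (0.39) or with a minimum change of 1.5-fold (0.41), and leaving out 1 library gave 0.37 to 0.48. With the replicate block 2018 genes were called, 978 higher and 1040 lower, and 1765 were shared with the calls without it. Beside the group counts named in the report and 4930556M19Rik, which did not pass with it, the block changed no other call among the named genes of largest change. Of the alternatives over those 34 genes, 423 kept the direction and the call and 42 kept the direction only, and none reversed. Of the counts and medians of gene lists, 1705 stayed within 1.5 times and 1109 did not. The depth of the libraries limits what can be called, so a gene that did not pass is not shown to be unchanged.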

Other observations

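Genes of other types were often called in the same direction as the protein-coding gene they overlap. Of the 101 genes of other types called higher, 42 overlapped a tested protein-coding gene on the same strand, and that gene was called higher for 25 of them and lower for 1. Of the 42 called lower, 8 had such a host, called lower for 7. Among the 1935 that were not called, hosts were called higher for 242 and lower for 160. On the opposite strand, 2 of 15 genes called higher had a host called higher. The clearest case was Fam155a, which encodes a subunit of the sodium leak channel complex and rose from 6.89, 6.995 and 8.13 to 35.5, 36.4 and 36.97 (log2 fold change 2.30, SE 0.12, edgeR adjusted p = 0.000154): 8 TEC loci within it on the same strand, on chromosome 8 of GRCm38, rose as well, among them Gm44797 (3.37) and 2900027M19Rik (2.92). Xkr4 held 3 such loci that rose and the adhesion gene Chl1 2, and Kcnd2 and Nova1 held 2 each that fell. These loci were picked after their values were seen, and the counts of genes that overlap on a strand are uncertain.

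Runs of at least 3 protein-coding genes that were consecutive among those tested and called in one direction numbered 33, of which 11 were higher and 22 lower. The number that chance gives was not computed, and 3 runs are described here as examples. On chromosome 11 of GRCm38, from 109669749 to 110251776, Fam20a and the lipid transporter genes Abca8b, Abca8a, Abca9 and Abca6 were consecutive among the genes tested and all rose. Rsad2 and Cmpk2, both interferon-stimulated, fell together with Rnf144a on chromosome 12 from 26300964 to 26479837. Hadha and Hadhb, which encode both subunits of the mitochondrial trifunctional protein, fell in a run of 4 genes with 3110082J24Rik and Garem2 on chromosome 5 from 30103584 to 30184593. The Abca8 genes are related copies, so reads may have been divided between them by the counting.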
